A study of Mus musculus with 5 samples.

Results

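Whole-blood RNA of adult female mice was measured for 8 genes of the red cell membrane and its underlying skeleton: Slc4a1, Epb42, Ank1, Sptb, Rhag, Rhd, Tmod1 and Add2. They were taken by name, without using their values, as all probe sets to which the platform annotation gives exactly 1 of these symbols. This gave 19 of the 45101 probe sets on the array, and 8 of 18194 named genes. The samples were 2 first-generation (AKR/J x FVB/NJ) females, written AKRxFVB F1 below, and 3 first-generation (DBA/2J x FVB/NJ) females, written DBAxFVB F1. The FVB/NJ parent is common to both crosses, no treatment is named, and the exact age is not given beyond adult. The study compared the genotypes for differences in basal expression. Nothing in the labels ties the samples of a cross to separate animals, so the p-values cover only how these samples varied, and that variation may be technical. In a blood sample, fewer cells of a type and less RNA per cell cannot be told apart.

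The red cell keeps its shape and survives repeated deformation because a mesh of spectrin lies under its membrane. Ankyrin ties spectrin to the anion exchanger in the membrane, and the Rh proteins belong to the same membrane complex. Short actin filaments at the nodes of the mesh are capped by tropomodulin and bound by adducin. Mature mammalian red cells have lost their nucleus, and red cell RNA in blood is known to be carried chiefly by reticulocytes, the youngest circulating red cells. Loss of ankyrin, spectrin or the anion exchanger causes spherocytosis, an anaemia of fragile round cells, in mice and people.

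Array 3 of DBAxFVB F1 stood apart before any gene was compared. The 18 hybridisation control probe sets, which detect material added to the labelled sample, had a median log2 value of 7.99 on it and between 10.01 and 10.12 on the other 4 arrays. Probe sets with a mean between 9.5 and 11 lay 0.83 below their own mean over the arrays on it (a median of -0.83), while those with a mean between 3 and 6 had a median of 0.00744. Differences between the crosses are therefore also given without that array. A positive log2 difference always means a higher value in DBAxFVB F1.

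No gene of the membrane skeleton passed the test between the crosses, and for most of them the arrays of a cross differed by more than the crosses did. Of the 17 member probe sets that reached the filter on mean level (2.51, the median of all probe sets without the array controls), limma called 0 at an adjusted p below 0.05, and over all 22519 probe sets tested it called 0 as well, a share of 0%. At an unadjusted p below 0.05 there was 1 of 17, against 10.4% of all tested. The groups did not overlap for 2 of 17 on the higher side in DBAxFVB F1, against 16.4% of all tested, and for 0 of 17 on the lower side, against 12.6%. The median difference over all 19 member probe sets was -0.01, with 9 higher and 10 lower, beside a median of 0.04 over all tested. Without DBAxFVB F1 array 3 the member median was 0.04, with 15 higher and 4 lower. Over all tested it was then 0.04 as well, with 12834 higher and 9684 lower. Quantile normalization (0.11) and cyclic loess (0.04) also put the member median above 0, while median centring left it below 0 (-0.05).

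**Figure D1:**
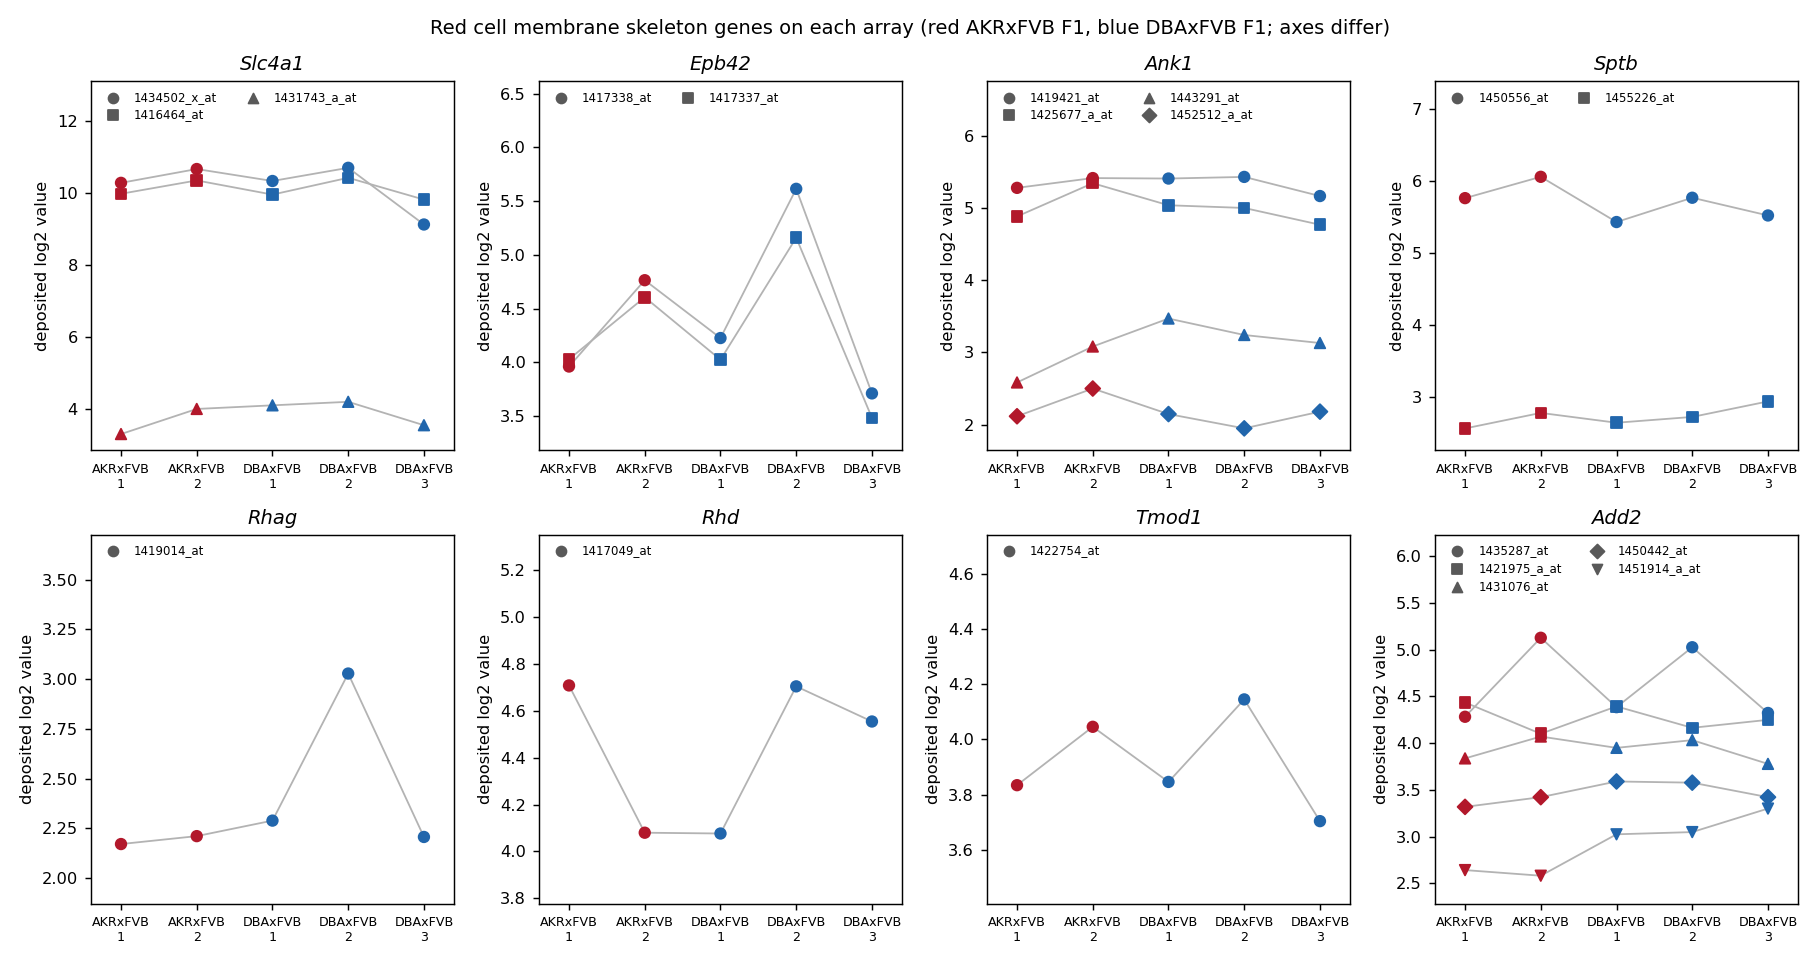
Deposited log2 values (vertical axes, which differ between panels) of all 19 probe sets of the 8 genes on the 5 arrays (horizontal axes; red AKRxFVB F1, blue DBAxFVB F1); marker shape gives the probe set and a grey line joins the values of 1 probe set. Epb42 runs from 3.71 to 5.61 on its leading probe set, with both extremes in DBAxFVB F1, and Ank1 on its leading probe set stays between 5.17 and 5.43.

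The anion exchanger Slc4a1, also called band 3, is the main integral membrane protein of the red cell and exchanges chloride for bicarbonate. Its probe set with the highest mean, 1434502_x_at, read 10.29 and 10.67 in AKRxFVB F1 and 10.34, 10.71 and 9.13 in DBAxFVB F1. Only array 3 of DBAxFVB F1 was low, and the groups overlapped. The difference was -0.42 ± 0.52 (SE; limma adjusted p = 0.796), with a 95% interval from -1.62 to 0.78. Without array 3 of DBAxFVB F1 it was 0.04, so the sign rested on that array, and it was also positive after quantile normalization (0.14) and cyclic loess normalization (0.13).

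The other probe sets of Slc4a1 did not share the drop to the same extent. Probe set 1416464_at read 9.99 and 10.36 in AKRxFVB F1 and 9.96, 10.43 and 9.82 in DBAxFVB F1. On array 3 of DBAxFVB F1 it lay 0.37 below the mean of the other 2 arrays of its cross (-0.37), where 1434502_x_at had a step of -1.39. The difference of 1416464_at was -0.10 ± 0.38 (SE; limma adjusted p = 0.943), and without that array 0.03. Probe set 1431743_a_at read 3.31 and 4.01 against 4.11, 4.21 and 3.56, with array 1 of AKRxFVB F1 the lowest, and differed by 0.30 ± 0.29 (SE; limma adjusted p = 0.737), or by 0.50 without DBAxFVB F1 array 3. By the maker's naming, an x in the name marks probes that can also match other transcripts, and an a marks probes shared by several transcripts of a gene. Whether that matters here was not tested.

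Ank1 encodes ankyrin, the adaptor that holds spectrin to the anion exchanger, and it was the steadiest member on its leading probe set. Probe set 1419421_at read 5.28 and 5.41 in AKRxFVB F1 and 5.41, 5.43 and 5.17 in DBAxFVB F1, so that the 5 arrays spanned 0.26. The groups overlapped almost fully, and the difference was -0.01 ± 0.24 (SE; limma adjusted p = 0.991) with a 95% interval from -0.58 to 0.56. The sign turned in several alternatives: the difference was 0.07 without DBAxFVB F1 array 3, 0.19 with quantile normalization and 0.06 with cyclic loess.

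The remaining Ank1 probe sets did not move together. Probe set 1425677_a_at read 4.88 and 5.34 against 5.04, 5.0002 and 4.77, a difference of -0.18 ± 0.25 (SE), or -0.09 without DBAxFVB F1 array 3. Probe set 1443291_at read 2.58 and 3.08 in AKRxFVB F1 and 3.47, 3.24 and 3.13 in DBAxFVB F1, and here every DBAxFVB F1 array lay above both others. Its difference was 0.45 ± 0.20 (SE; limma adjusted p = 0.502, unadjusted p = 0.0567), with a 95% interval from -0.02 to 0.91. The gap between the highest AKRxFVB F1 array and the lowest DBAxFVB F1 array was small, and the 2 AKRxFVB F1 arrays differed from each other by 0.50. Without DBAxFVB F1 array 3 the difference was 0.52 (limma adjusted p = 0.418). Probe set 1452512_a_at read 2.12 and 2.50 against 2.15, 1.95 and 2.18, and its mean was below the filter, so it was not tested.

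Epb42 encodes a peripheral protein that binds the anion exchanger and ankyrin, and it varied most among the members. Probe set 1417338_at read 3.96 and 4.76 in AKRxFVB F1 and 4.23, 5.61 and 3.71 in DBAxFVB F1. The highest and the lowest of the 5 arrays were thus both DBAxFVB F1, with a span of 1.90. The difference between the crosses was 0.15 ± 0.53 (SE; limma adjusted p = 0.936), with a 95% interval from -1.08 to 1.39, and the pooled SD between arrays of a cross was 0.87. The difference was 0.56 without DBAxFVB F1 array 3, -0.39 without array 2 of that cross and -0.25 without AKRxFVB F1 array 1.

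The other Epb42 probe set gave the same order of arrays at both ends. Probe set 1417337_at read 4.03 and 4.61 against 4.02, 5.16 and 3.48, and differed by -0.09 ± 0.46 (SE; limma adjusted p = 0.956), or by 0.27 without DBAxFVB F1 array 3. The root mean square distance between both probe sets, after each was centred on its mean over the 5 arrays, was 0.17. For the first pair of Slc4a1 probe sets that distance was 0.41. The swing of Epb42 between arrays was thus seen on both of its probe sets, while that of Slc4a1 on array 3 of DBAxFVB F1 was large on only 1 of 3.

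The Rh proteins gave different profiles. Rhag encodes the Rh-associated glycoprotein, which the Rh complex needs to reach the membrane, and its probe set 1419014_at read 2.17 and 2.21 in AKRxFVB F1 and 2.29, 3.03 and 2.21 in DBAxFVB F1. Only array 2 of DBAxFVB F1 stood out. The mean was below the filter, so the test did not include Rhag. In the fit without a filter the difference was 0.32 (limma adjusted p = 0.733), and it was 0.06 without DBAxFVB F1 array 2 and 0.47 without array 3. Values near 2 have no stated limit of detection, so an expressed level cannot be read from the other 4 arrays.

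Rhd, the mouse gene of the Rh polypeptide itself, was measured by 1417049_at at 4.71 and 4.08 in AKRxFVB F1 and at 4.08, 4.70 and 4.55 in DBAxFVB F1. High and low arrays occurred in both crosses, and the 2 AKRxFVB F1 arrays lay 0.63 apart, with array 1 the higher (a step of -0.63 from array 1 to array 2). That is opposite to the leading probe sets of the other 7 members, all of which were higher on array 2. The difference between the crosses was 0.05 ± 0.29 (SE; limma adjusted p = 0.962), with a 95% interval from -0.62 to 0.72, and -0.00368 without DBAxFVB F1 array 3.

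The upstream sequences of these genes show how far the members share short motifs of erythroid control regions. GATA1 and KLF1, the main erythroid transcription factors, are known to bind GATA and CACC motifs, so the letters GATAA and CACCC were searched on both strands in the 250 bases before each RefSeq start of build GRCm38.p6. Windows were found for 6 members, all but Slc4a1 and Ank1. GATAA was present in 3 of the 6, against 22.6% of all 32851 windows, and CACCC in 5 of the 6, against 52%. Both motifs are 5 letters long and did not overlap each other in these windows. The windows with GATAA are printed because they belong to Epb42, Rhag and Rhd, whose array profiles differ from each other; capitals mark the motifs on either strand.
Epb42, chr2:121036878-121037127, minus strand: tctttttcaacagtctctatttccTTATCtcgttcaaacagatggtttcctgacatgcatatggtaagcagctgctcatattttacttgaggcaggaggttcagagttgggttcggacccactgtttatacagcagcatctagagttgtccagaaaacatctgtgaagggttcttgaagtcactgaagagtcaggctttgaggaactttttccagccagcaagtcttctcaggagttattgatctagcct
Rhag, chr17:40810899-40811148, plus strand: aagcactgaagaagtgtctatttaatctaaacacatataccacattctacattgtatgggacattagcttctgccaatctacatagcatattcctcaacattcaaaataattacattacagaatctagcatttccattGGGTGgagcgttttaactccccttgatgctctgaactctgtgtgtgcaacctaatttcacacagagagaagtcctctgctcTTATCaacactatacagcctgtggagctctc
Rhd, chr4:134864286-134864535, plus strand: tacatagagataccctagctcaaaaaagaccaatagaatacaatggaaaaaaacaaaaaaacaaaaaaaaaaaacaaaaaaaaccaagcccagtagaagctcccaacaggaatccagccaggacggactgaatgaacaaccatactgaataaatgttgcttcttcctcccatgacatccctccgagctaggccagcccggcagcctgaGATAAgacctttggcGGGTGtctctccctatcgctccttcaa
GATAA began 226 bases before the start in Epb42 and 31 bases before it in Rhag, both on the reverse strand, and 42 bases before it in Rhd on the forward strand. Rhag and Rhd also held CACCC on the reverse strand, at 112 and 27 bases. A match is a description of these letters and not a binding site, and the 3 genes with GATAA did not have 1 common profile over the arrays.

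Sptb encodes the beta chain of red cell spectrin, the main strand of the mesh, and among the 7 tested leading probe sets its difference alone kept its sign under every alternative tried. Probe set 1450556_at read 5.76 and 6.06 in AKRxFVB F1 and 5.43, 5.77 and 5.52 in DBAxFVB F1. The groups overlapped only through the readings of 5.76 and 5.77. The difference was -0.34 ± 0.27 (SE; limma adjusted p = 0.694), with a 95% interval from -0.96 to 0.29. It ran from -0.49 to -0.19 with 1 array left out, with -0.31 without DBAxFVB F1 array 3. Its size was less stable than its sign: it was -0.06 (limma adjusted p = 0.966) with quantile normalization and -0.21 with cyclic loess. Probe set 1455226_at of the same gene read 2.56 and 2.78 against 2.64, 2.72 and 2.94, and differed by 0.10 ± 0.16 (SE; limma adjusted p = 0.848), in the other direction, or by 0.01 without DBAxFVB F1 array 3.

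Tmod1 encodes tropomodulin, which caps the slow-growing ends of the actin filaments at the nodes of the mesh, and it is also a protein of heart muscle. Probe set 1422754_at read 3.83 and 4.05 in AKRxFVB F1 and 3.85, 4.15 and 3.70 in DBAxFVB F1, so the wider DBAxFVB F1 range contained both AKRxFVB F1 values. The difference was -0.04 ± 0.21 (SE; limma adjusted p = 0.958), with a 95% interval from -0.53 to 0.44, and 0.06 without DBAxFVB F1 array 3. Blood was drawn from the heart, and heart muscle genes were therefore looked at beside Tmod1. Of 12 such genes, 7 reached the filter, 4 higher and 3 lower in DBAxFVB F1, with 0 called by limma and 2 at an unadjusted p below 0.05, both higher. These were Actc1 at 0.75 ± 0.27 (SE) and Myl2 at 0.78 ± 0.34 (SE), followed by Mb at 0.42 ± 0.22 (SE) and Actn2 at 0.19 ± 0.14 (SE). Without DBAxFVB F1 array 3 these were 0.76, 0.998, 0.28 and 0.22. Myl2 read 2.41 and 2.36 in AKRxFVB F1, both below the filter of 2.51, and 3.93, 2.83 and 2.74 in DBAxFVB F1. It reached the filter only through its DBAxFVB F1 values, so its higher value there is no support for a difference. The summed linear signal over all 12 heart muscle genes was 89.8 to 98.0 in AKRxFVB F1 and 94.5 to 127 in DBAxFVB F1. The lowest log2 value of any probe set was 1.29, so a value of 0 could not mark an absent gene. Myh6, Tnni3, Myl7, Nppa and Ryr2 lay below the filter, so the sum includes genes too dim to be tested. The part of heart muscle RNA in the Tmod1 values was not tested.

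Add2 encodes beta adducin, which bundles actin and recruits spectrin to it, and its 5 probe sets disagreed. The leading probe set, 1435287_at, read 4.28 and 5.13 in AKRxFVB F1 and 4.39, 5.03 and 4.32 in DBAxFVB F1. Array 2 of each cross was high and the other 3 arrays were low. The difference between the crosses was -0.13 ± 0.34 (SE; limma adjusted p = 0.913), with a 95% interval from -0.91 to 0.65, and 0.000797 without DBAxFVB F1 array 3.

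Probe set 1451914_a_at of Add2 had the smallest p of any member. It read 2.64 and 2.58 in AKRxFVB F1 and 3.02, 3.05 and 3.30 in DBAxFVB F1, so all 3 DBAxFVB F1 arrays lay above both others. The difference was 0.51 ± 0.15 (SE; unadjusted p = 0.0109, limma adjusted p = 0.315), with a 95% interval from 0.16 to 0.87, and it ran from 0.43, without DBAxFVB F1 array 3, to 0.56 with 1 array left out. It did not pass, and its adjusted p ranged from 0.241 to 0.876 over the alternatives. The other 3 Add2 probe sets differed by 0.00113 ± 0.21 (SE, 1421975_a_at), -0.03 ± 0.19 (SE, 1431076_at) and 0.16 ± 0.16 (SE, 1450442_at), or by 0.01, 0.04 and 0.21 without DBAxFVB F1 array 3. On 1421975_a_at, array 2 was the lowest of AKRxFVB F1 and of DBAxFVB F1, the reverse of the leading probe set, and the centred profiles of this pair lay 0.49 apart. Groups that did not overlap were thus seen on 1 of the 5 Add2 probe sets, at values of 2.58 to 3.30. Over all tested probe sets, 16.4% did not overlap with DBAxFVB F1 higher.

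**Figure D2:**
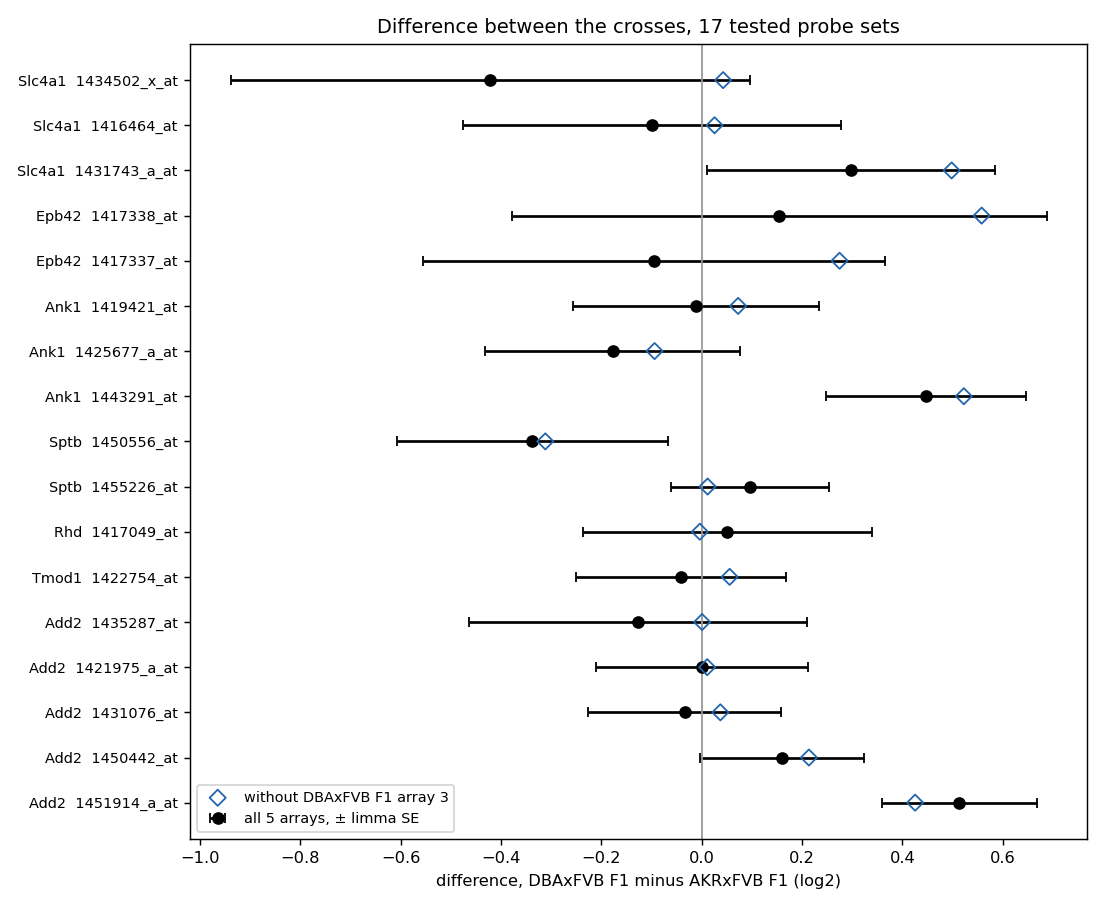
Difference between the crosses (horizontal axis, DBAxFVB F1 minus AKRxFVB F1, log2) for the 17 tested member probe sets (vertical axis); black points with bars are limma estimates with their standard errors, and open diamonds are the differences without DBAxFVB F1 array 3. The estimates run from -0.42 for Slc4a1 to 0.51 for Add2, and the diamond of the leading Slc4a1 probe set lies at 0.04.

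The spread within a cross was set against the difference for each tested member probe set. The pooled SD between arrays of a cross exceeded the size of the difference for 13 of 17, against 54.9% of all tested probe sets. The exceptions were Ank1 on 1443291_at, Sptb on 1450556_at, and Add2 on 1450442_at and 1451914_a_at. The pooled SD ran from 0.09 to 0.87 over the tested members, with a median of 0.22, and its median over all tested probe sets was 0.21. The largest values among the members were those of Epb42, Slc4a1 and Add2.

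**Figure D3:**
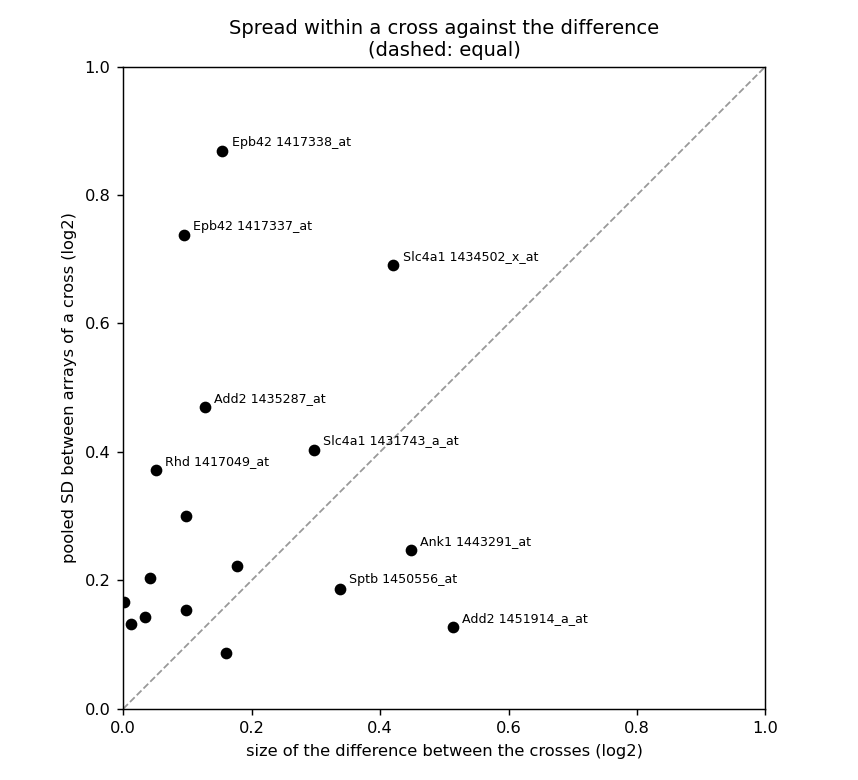
Pooled SD between the arrays of a cross (vertical axis, log2) against the size of the difference between the crosses (horizontal axis, log2) for the 17 tested member probe sets, 1 point each; the dashed line marks equal values. For 13 points the spread is larger than the difference, and both Epb42 points lie highest, at 0.74 and 0.87.

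Which arrays were high and which were low was alike for several members and crossed the genotypes; these counts were chosen after the values were seen. On the 8 leading probe sets, array 2 of DBAxFVB F1 was the highest for 5 and array 2 of AKRxFVB F1 for 2. The lowest was array 3 of DBAxFVB F1 for 4, with array 1 of each cross lowest for 2. Over the 17 tested probe sets, array 2 of DBAxFVB F1 was highest for 7, against 18.4% of all tested, and array 3 of that cross lowest for 8, against 24.4%. Array 2 of AKRxFVB F1 lay above array 1 for 14 of 17, against 54% of all tested, and array 2 of DBAxFVB F1 above its array 1 for 13 of 17, against 49.7%. Replicate numbers carry no order, and these counts describe the 5 arrays only. Several of the probe sets belong to the same gene, so the counts are not over independent genes.

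Related genes of the red cell were followed on the same arrays. For the 7 tested members, each by its leading probe set, the median distance from the mean of the 5 arrays was -0.06 and 0.31 in AKRxFVB F1 and -0.23, 0.28 and -0.21 in DBAxFVB F1. For 18 other membrane proteins of the red cell, such as transporters and blood group carriers, it was -0.08 and 0.10, then -0.03, 0.30 and -0.23. For 16 erythroid regulators and maturation genes it was -0.09 and 0.22, then 0.04, 0.25 and -0.46. All 3 lists were highest on array 2 of each cross. For 15 heme, globin and iron genes the medians stayed between -0.04 and 0.11, although single genes of the list, such as Hba-a2, varied widely between arrays.

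Markers of platelets, the other blood component without a nucleus, were followed in the same way. Their median distance was -0.37 and 0.86 in AKRxFVB F1 and 0.22, 0.42 and -1.28 in DBAxFVB F1. Like the members they were highest on array 2 of each cross, but on array 1 of DBAxFVB F1 they lay above their mean and the members below theirs. Of 12 listed genes, 10 had a probe set and reached the filter, 1 higher and 9 lower in DBAxFVB F1, or 8 higher and 2 lower without array 3 of that cross. Their summed linear signal was 3539 to 6758 in AKRxFVB F1 and 1527 to 5344 in DBAxFVB F1. Gp6, a collagen receptor, differed by 0.54 ± 0.26 (SE), and Gp1bb, Gp9 and Ppbp by -0.64 ± 0.64, -0.54 ± 0.56 and -0.52 ± 0.55 (SE). Without DBAxFVB F1 array 3 these were 0.34 for Gp6 and 0.00665, -0.0186 and -0.023 for the others. The B cell markers followed another course, with 0.92 and -0.06 in AKRxFVB F1 and -0.65, -0.38 and 0.08 in DBAxFVB F1. T cell markers lay at 0.09 and 0.23, then 0.18, -0.35 and -0.20, and neutrophil markers at 0.28 and -0.23, then -0.07, -0.02 and 0.26. Of 7 genes tested in each, B cell and T cell markers were 1 higher and 6 lower, and neutrophil markers 5 higher and 2 lower, with 0 called by limma. Those with an unadjusted p below 0.05 were Ms4a1 at -1.96 ± 0.45 (SE) and Cd79b at -1.43 ± 0.53 (SE) for B cells, Cd2 at -1.13 ± 0.30 (SE) and Cd3d at -1.38 ± 0.38 (SE) for T cells, and Csf3r at 0.42 ± 0.17 (SE) for neutrophils. Without DBAxFVB F1 array 3 these were -2.28, -1.72, -1.25, -1.08 and 0.41. The list counts turned on single arrays: without AKRxFVB F1 array 2, T cell markers were 3 higher and 4 lower, and neutrophil markers 3 higher and 4 lower with a median of -0.22 in place of 0.16, and quantile normalization gave 7 higher and 0 lower for neutrophils. The B cell median of -0.63 was -0.14 without AKRxFVB F1 array 1, -1.17 without its array 2, and -0.94 without DBAxFVB F1 array 3. The T cell median of -0.31 was -0.52 without AKRxFVB F1 array 1, and the neutrophil median was 0.09 without DBAxFVB F1 array 3 and 0.10 without AKRxFVB F1 array 1. The hybridisation controls were level on 4 arrays, at 0.33 to 0.43, and at -1.64 on array 3 of DBAxFVB F1. The 3-prime minus 5-prime difference of the Gapdh control, a sign of RNA quality, was 1.04 and 0.73 in AKRxFVB F1 and 0.62, 0.58 and 1.33 in DBAxFVB F1, lowest on array 2 of each cross. The part of platelet RNA, RNA quality and the array itself in the members' values was not tested.

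**Figure D4:**
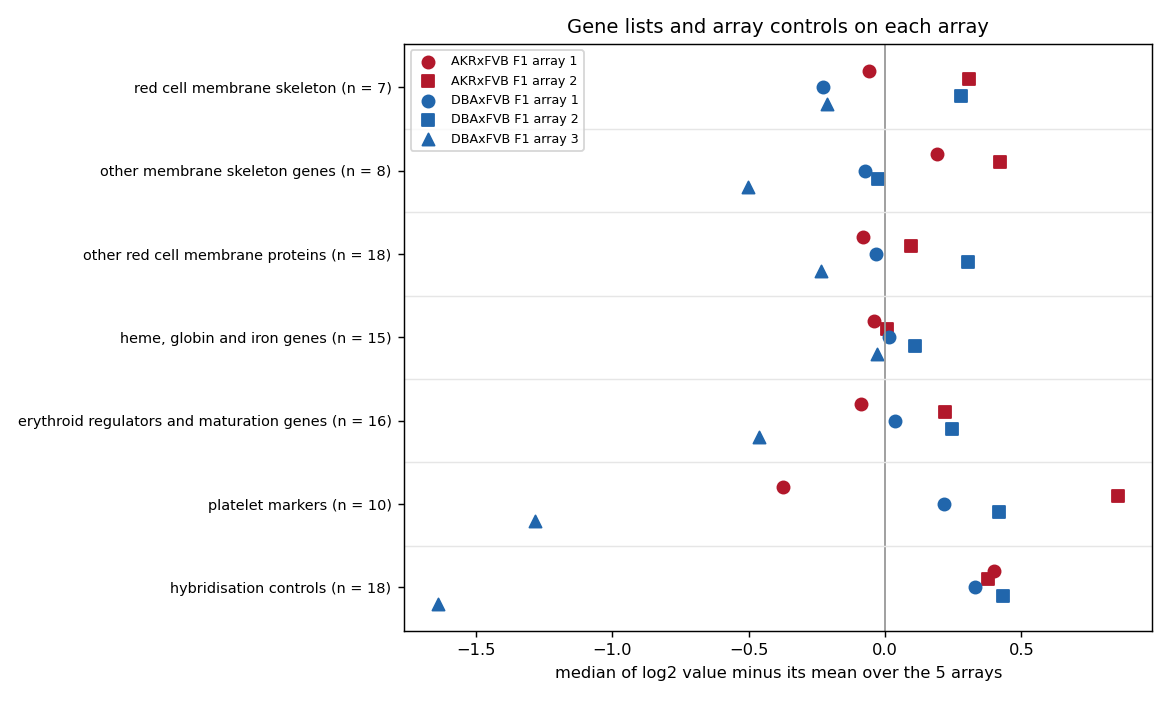
Median over the genes of a list, or over the array controls, of the log2 value minus its mean over the 5 arrays (horizontal axis), for 7 groups (vertical axis); colour and marker give the array. Array 2 of both crosses (squares) is highest for the membrane skeleton, at 0.31 and 0.28, and array 3 of DBAxFVB F1 (triangle) lies at -1.28 for platelet markers and -1.64 for the hybridisation controls.

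Other genes of the skeleton were set beside the members. Of 8 tested, all were lower in DBAxFVB F1, with a median of -0.61 that was -0.33 without DBAxFVB F1 array 3. With quantile normalization 4 were higher and the median was -0.07, and with cyclic loess 2 were higher and it was -0.11; leaving out array 2 of AKRxFVB F1 gave 2 higher, and leaving out array 1 or 3 of DBAxFVB F1, or using the replicate block, gave 1. None was called by limma, and 2 had an unadjusted p below 0.05. Add3, the gamma adducin found in many cell types, read 5.73 and 4.96 in AKRxFVB F1 and 4.24, 4.13 and 4.39 in DBAxFVB F1, a difference of -1.09 ± 0.28 (SE; limma adjusted p = 0.246), or -1.16 without DBAxFVB F1 array 3. The tropomyosin gene Tpm3 read 8.48 and 8.38 against 7.71, 7.36 and 6.77, a difference of -1.15 ± 0.38 (SE; limma adjusted p = 0.373), or -0.90 without that array. Tmod3, the tropomodulin of most other cells, differed by -0.99 ± 0.49 (SE) and Actb, beta actin, by -0.66 ± 0.37 (SE), or by -0.49 and -0.46 without that array. These 4 genes are expressed well beyond red cells. Of the adducins, Add3 read lower on every DBAxFVB F1 array, while the groups overlapped on the leading Add2 probe set. The difference between them was not tested.

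Of the 18 tested other membrane proteins, 7 were higher and 11 lower, with a median of -0.09 that was 0.14 without DBAxFVB F1 array 3 and 0.07 after quantile normalization, and limma called 0. At an unadjusted p below 0.05 there were 2 higher and 1 lower. Slc29a1, a nucleoside transporter, read 2.33 and 2.57 in AKRxFVB F1 and 3.10, 2.83 and 2.98 in DBAxFVB F1. It differed by 0.52 ± 0.16 (SE; limma adjusted p = 0.316), or by 0.51 without DBAxFVB F1 array 3. Its AKRxFVB F1 mean of 2.45 was below the filter of 2.51. It was thus tested only through its DBAxFVB F1 values, and its place among the 2 higher genes is no support for a difference. Bcam, which carries the Lutheran antigen, differed by 0.55 ± 0.21 (SE), the glucose transporter Slc2a1 by -0.87 ± 0.34 (SE) and the lactate transporter Slc16a1 by -0.66 ± 0.30 (SE). Leaving out DBAxFVB F1 array 3 gave 0.60, -0.87 and -0.43.

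Of 15 heme, globin and iron genes, 12 were higher and 3 lower, with a median of 0.04, but 0.12 without DBAxFVB F1 array 3, and 5 were higher and 10 lower after median centring. The mitochondrial transporter Abcb10 had the smallest p, with 3.76 and 4.23 in AKRxFVB F1 and 4.20, 4.999 and 5.02 in DBAxFVB F1, a difference of 0.75 ± 0.31 (SE; limma adjusted p = 0.466), or 0.61 without DBAxFVB F1 array 3. Hba-a2 read 5.72 and 5.87 against 5.35, 5.84 and 3.39, and differed by -0.94 ± 0.65 (SE), or by -0.20 without DBAxFVB F1 array 3. The differences were 0.25 ± 0.19 (SE) for Slc25a38 and 0.18 ± 0.14 (SE) for Hba-a1, or 0.21 and 0.19 without that array. Hba-a1 had an AKRxFVB F1 mean of 2.45, below the filter of 2.51, so it was tested only through its DBAxFVB F1 values. The lists used only probe sets with 1 symbol, so any probe set annotated to several globin genes was left out. The Hba-a1 and Hba-a2 values therefore cannot be read as the level of alpha globin RNA. Of 16 erythroid regulators and maturation genes, 2 were higher and 14 lower, with a median of -0.13, while without DBAxFVB F1 array 3 there were 10 higher and 6 lower, and after quantile normalization 11 and 5. Epor, the erythropoietin receptor, differed by 0.33 ± 0.17 (SE), Ldb1 by -0.26 ± 0.21 (SE), Ube2o by -0.37 ± 0.41 (SE) and Lmo2 by -0.42 ± 0.47 (SE). These were 0.34, -0.40, -0.14 and 0.00176 without DBAxFVB F1 array 3. Neither list had a gene called by limma.

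Genes whose centred profile lay closest to each member were found among 12420 other named genes (12421 for Rhag), by root mean square distance over the 5 arrays. For Epb42 they were Cd36 at 0.15, Nipa1 at 0.22 and Myct1 at 0.22. Cd36, a fatty acid receptor of platelets and other cells, read 5.57 and 6.56 in AKRxFVB F1 and 5.96, 6.97 and 5.35 in DBAxFVB F1, with the same high and low arrays as Epb42. For the leading Slc4a1 probe set they were Azin1, Selenok and Slc25a51, at 0.04, 0.05 and 0.06. The other Slc4a1 probe sets lay at 0.41 and 0.47 from it. For Add2 the nearest genes were Fuz, AI507597 and Zc3h13, at 0.07, 0.07 and 0.09. Being picked as the nearest of so many genes makes them close, so lying nearer than another probe set of the same gene says little. The nearest gene was also closer than every other probe set of the gene for Epb42, Ank1, Sptb and Add2.

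For the members that varied less, close profiles carry less information, because many genes vary little. Ank1 lay nearest to Mrpl19, Mepce and Bbx, at 0.00768, 0.02 and 0.02, and Tmod1 to Tbpl1, Mta1 and Ube2h, each at 0.02. Sptb lay nearest to Mycbp, Taf11 and 1700022A21Rik, at 0.03, 0.04 and 0.04. Rhag lay nearest to Syt13, Ctsk and Cnnm3, at 0.03, 0.06 and 0.06, and Rhd to Gemin7, Ubfd1 and Rita1, at 0.06, 0.08 and 0.08. No member was among the 3 nearest genes of another member.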

How the data were processed

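RNA was extracted with Trizol, amplified in 2 cycles and labelled with biotin, per the labels' protocols. The authors deposited 1 log2 value per probe set and array; that scale was inferred from the values (1.29 to 14.8), and the submitters' processing notes name MAS5 and RMA without saying which gave this table. The normalization is thus unknown, and a method that compresses low signals would shrink differences of dim probe sets.

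Of 45101 probe sets, 64 were array controls, 34958 had 1 symbol, 932 several and 9211 none in the platform annotation; 0 symbols changed in a table of assembly GRCm38.p6. Upstream sequences are RefSeq's, of the same build. The test used all 5 samples and limma (version 3.58.1, run under R 4.3.3; lmFit, eBayes with trend, cross as the only term, two-sided, 3 residual degrees of freedom) on the 22519 probe sets at or above the filter, with Benjamini-Hochberg adjustment over all of them; error terms are moderated standard errors. With 2 arrays against 3, an exact permutation test cannot fall below 0.1 and was not used. The small number of arrays limits the precision. The fit was tested on simulated data. Members, lists and alternatives were chosen with earlier results of these data known. A gene was represented by its probe set with the highest mean, and the text names all member probe sets, from each related list the 4 genes with the smallest unadjusted p (of B cell, T cell and neutrophil markers, those below 0.05), and the 3 genes nearest each member in centred profile. Python 3.11.15, pandas 2.3.3 and matplotlib 3.10.9 were used.

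Replicate numbers 1 and 2 occur in both crosses. The deviations of same-numbered arrays from their cross means correlated at -0.26 and 0.17 over tested probe sets, and nothing in the labels makes the numbers a pairing.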

Additional observations from a re-analysis of the deposited data

How the results depend on the processing

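Limma called 0 probe sets and 0 member probe sets under every alternative: 3 normalizations, 2 other filters, 2 variance settings, array weights, the replicate block, each array left out, and a threshold of 0.1. The unadjusted count over all tested was 2337 of 22519, and 1271 without AKRxFVB F1 array 1, 1299 of 11260 with the filter at the 75th percentile and 3880 of 45037 without a filter; for an arm left with 1 array, its spread is assumed to be that of the other cross. The member median ran from -0.15 to 0.09 with 1 array left out, and its moves stayed within the spread between arrays (0.17, SD).

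Signs of leading probe sets were not stable, and of the differences recomputed 25 changed sign. A further 135 recomputed results, with the counts and medians among them, were classed as the same. The member median was classed so even where its sign changed, as from -0.01 to 0.11 with quantile normalization. Its moves stayed within the spread between arrays given above. The 25 and the 135 thus do not rest on 1 rule. Settings that alter only the filter or the variance estimate leave the difference of a gene unchanged, so they could not turn a sign. Quantile normalization gave Slc4a1 0.14 and Ank1 0.19, cyclic loess 0.13 and 0.061, and array weights gave Ank1 0.038 and Tmod1 0.024. With the replicate number as a block, array 3 of DBAxFVB F1 has a block of its own, so the estimate equals that without it: Slc4a1 0.043, Ank1 0.073, Rhd -0.00368, Tmod1 0.056 and Add2 0.000797; the block changed no call. With 1 array left out, the ranges were -0.74 to 0.043 for Slc4a1, -0.39 to 0.56 for Epb42, -0.0797 to 0.073 for Ank1, -0.26 to 0.37 for Rhd, -0.17 to 0.064 for Tmod1 and -0.55 to 0.30 for Add2. The mean over all probe sets of a gene was 0.0104 for Ank1 and 0.10 for Add2. The cause of these changes was not tested, and the 5 arrays cannot show a difference smaller than the intervals given.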
